A study of Mus musculus with 10 samples.

Results

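The vomeronasal type 1 receptor genes of mouse chromosome 7 were examined together, to ask whether the rise of Vmn1r90 (ENSMUSG00000100586) in embryos lacking Smchd1 stood alone in its family. Every gene of the count table that lies on chromosome 7 and has a symbol beginning with Vmn1r was taken, with no filter on low counts, which gave 103 genes of 35542. Vmn1r90 had been seen to rise in an earlier look at these libraries, so its own change is given below as a description and the weight is on the other 102 genes.

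RNA was sequenced from the frontonasal prominence, the embryonic swelling that forms the forehead and the nose, of E10.5 embryos. There were 6 libraries from wild-type embryos (WT, 3 labelled male and 3 labelled female) and 4 from embryos carrying the MommeD1 allele on both copies of Smchd1 (MD1, 2 labelled male and 2 labelled female). Both genotypes were on the FVB/NJ inbred background. MommeD1 is a nonsense allele from a chemical mutagenesis screen that removes SMCHD1, a chromatin protein that keeps the inactive X and certain autosomal clusters silent, and the allele is carried by every cell of the embryo. The sources used here do not say whether embryos were pooled, so the p-values measure the spread between these libraries, which may be technical.

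Vmn1r genes encode G protein-coupled receptors of the vomeronasal organ, a chemosensory organ of the nasal septum that detects pheromones. A mature sensory neuron of that organ usually expresses a single Vmn1r gene from 1 allele, together with the G protein subunit Gnai2 and the channel Trpc2, and the remaining family members stay silent in it. The genes lie in dense tandem arrays on a few chromosomes, their coding sequence is contained in 1 exon, and neighbouring copies are often very similar, so short reads can be hard to place. The organ is not yet formed at this stage, when the nasal pits are only beginning to deepen.

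The sequence around Vmn1r90 matters for the count, because reads of 75 bases were assigned to it by alignment. Vmn1r90 lies on the minus strand at chr7:14555474-14563506 (GRCm38), and GENCODE M21 gives it 9 transcripts that cover 7796 exon bases in 2 blocks. Its coding sequence, at chr7:14561245-14562171, is 927 bases long and makes up 11.9% of the exon bases. Aligned over the coding sequence, its closest relatives on the chromosome were Vmn1r177 (94.2% identical) and Vmn1r168 (94.1%), followed at a distance by Vmn1r183 (76.2%), Vmn1r180 (74.95%) and Vmn1r178 (74.3%). The median identity over the 102 other genes was 71.9% and the lowest 49.3%. The stretch of 75 coding bases in which Vmn1r90 and Vmn1r177 were most alike is shown first, as it is where a read could not tell them apart, with capitals at the bases that differ from Vmn1r90.
Vmn1r90, chr7:14561703-14561777, minus strand: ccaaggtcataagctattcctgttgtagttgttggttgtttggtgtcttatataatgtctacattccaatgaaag
Vmn1r177, chr7:23865981-23866055, minus strand: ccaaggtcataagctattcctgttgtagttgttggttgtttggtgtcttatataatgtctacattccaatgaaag
Vmn1r168, chr7:23541114-23541188, plus strand: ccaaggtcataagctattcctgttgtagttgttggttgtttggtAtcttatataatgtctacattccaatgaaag
Vmn1r183, chr7:24055171-24055245, plus strand: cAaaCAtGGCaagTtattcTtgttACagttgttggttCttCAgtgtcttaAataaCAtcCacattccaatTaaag
Vmn1r177 carried 0 differences here, Vmn1r168 carried 1 and Vmn1r183 carried 18. The stretch in which Vmn1r90 and Vmn1r177 were least alike is shown next, because it holds the bases by which a read could be placed.
Vmn1r90, chr7:14561888-14561962, minus strand: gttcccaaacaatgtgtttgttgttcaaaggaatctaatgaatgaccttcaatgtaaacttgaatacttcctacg
Vmn1r177, chr7:23866166-23866240, minus strand: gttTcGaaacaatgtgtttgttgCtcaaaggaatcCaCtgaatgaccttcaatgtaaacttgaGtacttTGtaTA
Vmn1r168, chr7:23540929-23541003, plus strand: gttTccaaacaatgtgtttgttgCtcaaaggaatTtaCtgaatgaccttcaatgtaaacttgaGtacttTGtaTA
Here Vmn1r177 had 10 differences from Vmn1r90 and Vmn1r168 had 9.

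Over whole transcripts the overlap with relatives was small. Of the 8285 distinct 75-base stretches in the transcripts of Vmn1r90, 80.1% occurred in no transcript of another gene. Vmn1r168 shared 21 of them and Vmn1r177 shared 19. The larger overlap was with Nlrp5-ps, a transcribed pseudogene on the same strand at chr7:14530652-14622479 whose exons contain 1757 exon bases of Vmn1r90 (22.5%), among them 812 of its 927 coding bases (87.6%), and which shared 19.6% of the 75-base stretches. Nlrp5-ps is not among the genes of the count table, so reads from its transcripts and reads from Vmn1r90 cannot be told apart in that part of the gene. The whole of Vmn1r90 lies within the span of Nlrp5-ps. Whether unspliced RNA of Nlrp5-ps gave reads elsewhere in Vmn1r90 was not tested. The comparison is with annotated transcripts of the reference strain and not with the FVB/NJ genome.

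The libraries held 4195119 to 24125084 counts. Smchd1 was 246 ± 14.0 counts per 1000000 (CPM, scaled to library size by TMM) in the WT libraries (SD, n = 6) and 78.5 ± 20.8 CPM in the MD1 libraries (SD, n = 4), with no MD1 library above 99.8 CPM and no WT library below 229 CPM. The library labelled MD1 female replicate 1 went against its sex label. It held 88.1 CPM of the Y-linked gene Ddx3y, where the libraries labelled male held 78.1 to 96.0 CPM and the other libraries labelled female held 0, and 203 CPM of Xist, the RNA of the inactive X, where the other libraries labelled female held 2591 to 6717 CPM. The log2 fold change, pooled rate and call of Vmn1r90 are given with and without it. Other results include it unless stated. MD1 female replicate 4 stood apart by the summed level of 12 genes of the hypoxia response (10975 CPM against 1085 to 2450 CPM in WT), and MD1 male replicate 3 was the shallowest library. The 8 markers of the frontonasal prominence were all expressed, with a summed level of 911 to 1144 CPM in WT and 667 to 1034 CPM in MD1.

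Almost the whole family was silent in both genotypes. Of the 103 genes, 98 (95.1%) had 0 reads in all 10 libraries, beside 32.1% of the 33659 autosomal genes in the table. A count of 0 allows up to 3 counts, which is 0.0309 reads per 1000000 over the 6 WT libraries and 0.0612 over the 4 MD1 libraries, so a level below that was not detectable at this depth. The intervals and limits cover counting error only and leave out the spread between libraries. The reads carry no molecular identifiers, so copies of the same molecule were not told apart. The 5 genes with reads were Vmn1r88 (2304 reads), Vmn1r90 (182), Vmn1r71 (38), Vmn1r55 (1) and Vmn1r74 (1). Vmn1r88 accounted for 91.2% of the 2526 reads of the family and Vmn1r90 for 7.21%.

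**Figure D1:**
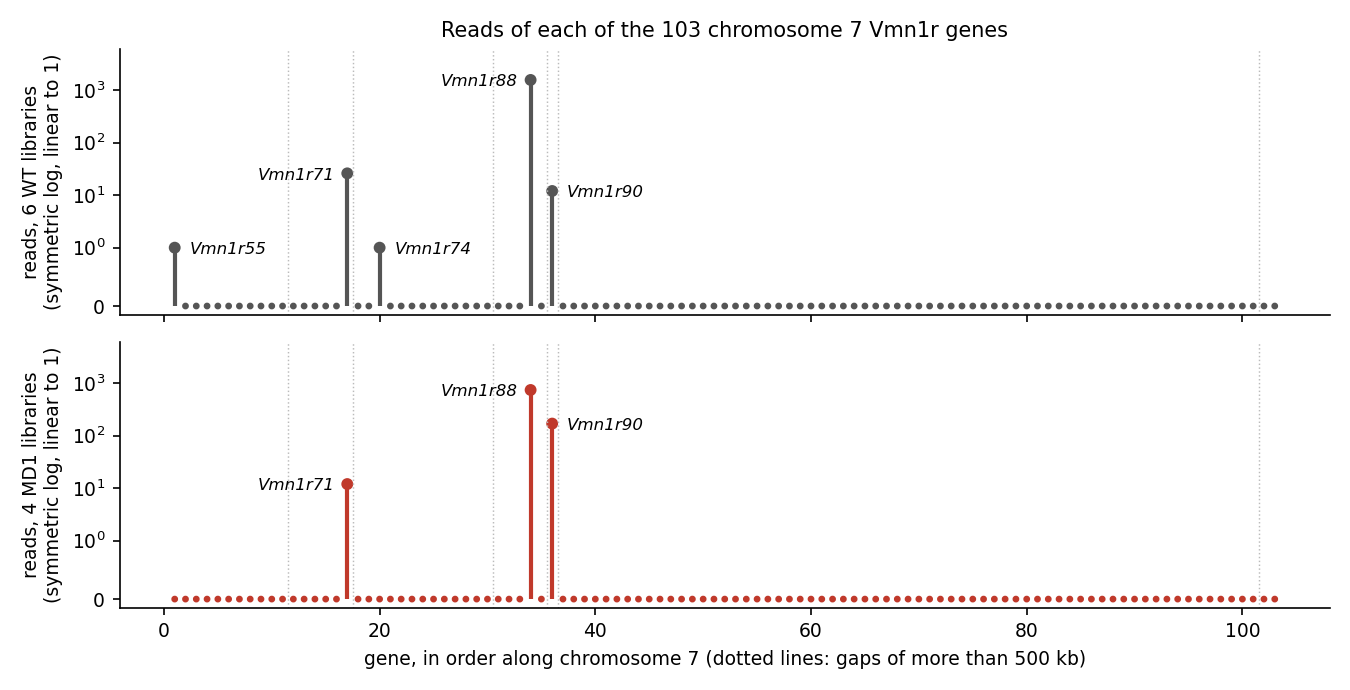
Reads of each of the 103 genes in their order along chromosome 7, summed over the 6 WT libraries (top) and the 4 MD1 libraries (bottom), on a symmetric log axis that is linear up to 1 read. Vmn1r88 is the tallest in both panels, Vmn1r90 goes from 12 reads in WT to 170 in MD1, and 98 genes have 0 reads in both.

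Gaps of more than 500 kb divide the genes into 7 groups, and every group other than that of Vmn1r90 held genes without reads. The first, from Vmn1r55 to Vmn1r65, holds 11 genes, and the 1 read of Vmn1r55 was the only one in it. The next 3 groups, of 6, 13 and 5 genes, each had 1 gene with reads, which was Vmn1r71, Vmn1r74 and Vmn1r88 in turn. Vmn1r90 makes up a group of 1 gene, 1335 kb from Vmn1r89 on one side and 5536 kb from Vmn1r91 on the other, both of which had 0 reads in every library. The largest group, the 65 genes from Vmn1r91 to Vmn1r183, held both close relatives of Vmn1r90 and gave 0 reads in any library. So did the 2 genes of the last group.

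Reads that could be placed at more than 1 gene may have been lost, and no source used here gives their treatment in the counting. Among the 98 genes with 0 reads, a median of 36.4% of the 75-base stretches also occurred in transcripts of another gene. For 36 of the 98 at least 90% of the stretches belonged to that gene alone and for 52 at least 50% did, while 18 had no stretch of their own. For those 18 genes a count of 0 says little. Vmn1r168 and Vmn1r177, the close relatives of Vmn1r90, shared 5.78% and 44.98% of their stretches, and both were at 0 in every library.

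**Figure D2:**
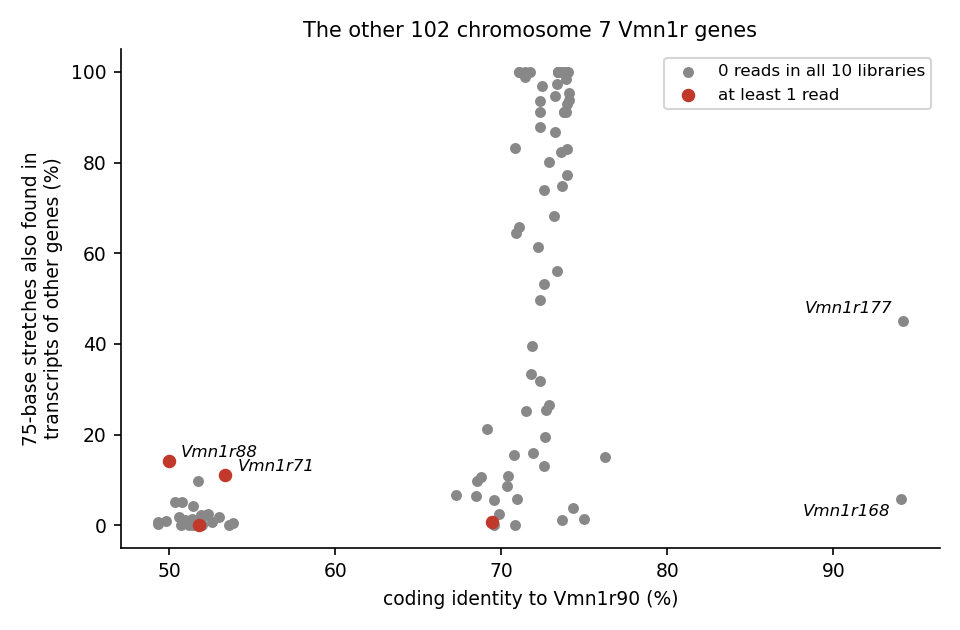
Each point is 1 of the other 102 genes, placed by the identity of its coding sequence to Vmn1r90 (%) and by the share of its 75-base stretches that also occur in transcripts of another gene (%). Vmn1r168 and Vmn1r177 stand apart at 94.1% and 94.2% identity with 0 reads, and the genes with reads (red) lie at 69.4% identity or less.

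Vmn1r90 was nearly silent in WT and present in every MD1 library. Among the 6 WT libraries its level ran from 0 through a median of 0.0594 CPM to 0.273 CPM, from counts of 0, 1, 5, 5, 0 and 1 in replicates 1 to 6. In MD1 it was 5.27 CPM (111 reads) in replicate 1, labelled female, 1.39 CPM (14 reads) in male replicate 2, 3.86 CPM (16 reads) in male replicate 3 and 2.20 CPM (29 reads) in female replicate 4. All 4 MD1 libraries lay above all 6 WT libraries, and this held whichever sex a library was labelled with. The same was true of 0.99% of the 15452 autosomal genes tested, and of 0.748% of the 22864 autosomal genes with a read. The group means were 0.0992 ± 0.113 CPM in the WT libraries (SD, n = 6) and 3.18 ± 1.73 CPM in the MD1 libraries (SD, n = 4).

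The log2 fold change of Vmn1r90 was 4.66 (SE 0.58, adjusted p = 0.0104 by edgeR's quasi-likelihood test), and only 2 of the genes tested had a larger one. Pooled over libraries, 170 reads in MD1 against 12 in WT gave a rate 28.1 times that of WT (95% exact interval 15.7 to 55.4, counting error only). Without MD1 replicate 1, which goes against its sex label, the rate was 16.8 times that of WT (interval 8.95 to 34.4), and the log2 fold change was 4.23 with an adjusted p of 0.0908 in edgeR. The call was also lost without WT replicate 2 (4.46, adjusted p = 0.0552 in edgeR) and without WT replicate 6 (4.58, adjusted p = 0.0519), while the direction was upward each time.

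**Figure D3:**
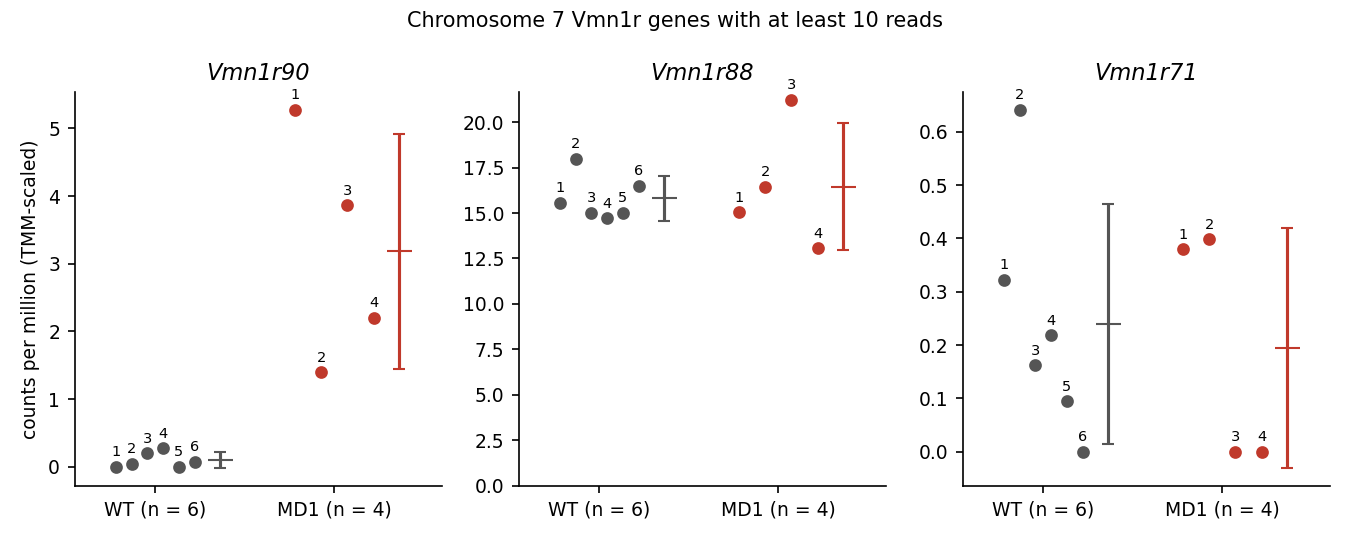
Level of Vmn1r90, Vmn1r88 and Vmn1r71 in counts per 1000000 in each WT (grey) and MD1 (red) library, with replicate numbers above the points and the mean and SD beside them. Vmn1r90 lies at 0.273 CPM or less in WT and at 1.39 CPM or more in MD1, while the ranges of both genotypes overlap for Vmn1r88 and Vmn1r71.

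Vmn1r88 was the most abundant of the family in both genotypes and did not pass the test. It lies on the plus strand at chr7:13159568-13185864, where GENCODE M21 gives it 3 transcripts and 9118 exon bases. In WT its lowest, median and highest levels were 14.7, 15.3 and 17.997 CPM. In MD1 it stood at 15.1 CPM in the library labelled female replicate 1, 16.4 CPM in male replicate 2, 21.2 CPM in male replicate 3 and 13.1 CPM in female replicate 4. The highest and the lowest of the 10 values were both MD1, with the WT range between them. Its log2 fold change was 0.04 (SE 0.14, adjusted p = 0.930 by edgeR), and the pooled rate in MD1 was 0.941 times that in WT (95% exact interval 0.861 to 1.03). Leaving out any 1 library gave log2 fold changes of -0.09 to 0.12.

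Vmn1r88 also has sequence in common with other genes. Its exons contain the processed pseudogene Gm4879 at chr7:13178903-13180174, which takes up 1272 bases (13.9% of its exon bases). Transcripts of Wdr12, a ribosome biogenesis gene on another chromosome, hold 1.51% of its 75-base stretches, and some of these also occur in Gm4879. Wdr12 was expressed at 42.5 ± 3.77 CPM in the WT libraries (SD, n = 6) and 39.5 ± 5.52 CPM in the MD1 libraries (SD, n = 4). Whether any Vmn1r88 reads came from these stretches was not tested, since the table gives 1 count for the whole gene.

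Vmn1r71, the only other gene with at least 10 reads, was too low for the filter. It is on the minus strand at chr7:10744543-10754364. Its lowest, median and highest levels in WT were 0, 0.190 and 0.641 CPM, and in MD1 it had 8 reads in the library labelled female replicate 1 (0.380 CPM), 4 in male replicate 2 (0.398 CPM) and 0 in the remaining libraries. The genotypes overlapped. In the fit without a filter its log2 fold change was -0.15 (SE 0.95, adjusted p = 0.962 by edgeR), and the interval of the pooled rate, 0.420 to 1.88 times that of WT, was wide. The exons of Vmn1r71 contain the processed pseudogene Gm5130, which takes up 959 bases (12.7% of its exon bases). Transcripts of Mtfmt, a gene on another chromosome, hold 32 of its 75-base stretches. Whether any Vmn1r71 reads came from these stretches was not tested. The single reads of Vmn1r55 and Vmn1r74 were both in WT.

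Of the genes of the family, 2 passed the low-count filter and 1 of them, Vmn1r90, was past the threshold, beside 0.0777% of all 15452 autosomal genes tested in edgeR (0.0712% counting those higher in MD1). Without the filter 5 could be tested and again only Vmn1r90 passed, beside 0.0481% of 22864 genes (0.0437% counting those higher in MD1). The other 98 had nothing to test. Vmn1r90 was at 0.273 CPM or less in every WT library, so it passed the filter through MD1 alone. It had also been picked for its rise, so its place in these counts is a description and not a test. The median log2 fold change of the pair that passed the filter was 2.35, which with 2 genes is no more than the midpoint of 4.66 and 0.04, and that of all tested genes was 0.00.

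Without Vmn1r90, the summed level of the family differed between the genotypes by less than the SD of either. It came to 16.1 ± 1.39 CPM in the WT libraries (SD, n = 6) and 16.6 ± 3.44 CPM in the MD1 libraries (SD, n = 4), the latter from 13.1 to 21.2 CPM. Nearly all of this sum was Vmn1r88, with means of 15.8 CPM in WT and 16.45 CPM in MD1. Without Vmn1r88 as well, 28 reads remained among 97173568 counts in WT and 12 among 49054544 counts in MD1. Vmn1r90 made up 0 to 1.79% of the family's reads in a WT library. In MD1 its share was 25.5%, 7.65%, 15.4% and 14.4% in replicates 1 to 4.

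Compared per length, Vmn1r90 stayed below Vmn1r88 in every library. On the log2 RPKM scale of the deposited values, the level of Vmn1r88 was 0.64 ± 0.12 in WT and 0.60 ± 0.39 in MD1, and that of Vmn1r90 was -6.33 ± 0.96 in WT and -1.70 ± 0.90 in MD1 (SD, n = 6 and n = 4). Zero counts had been replaced before the logarithm, so the WT level of Vmn1r90 on this scale partly reflects that replacement. The difference between the genes was 6.97 ± 1.05 log2 units in WT and 2.30 ± 0.84 in MD1, and it ranged from 1.29 to 3.33 over the 4 MD1 libraries.

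Among the 4 MD1 libraries the level of Vmn1r90 ran opposite to that of Smchd1 RNA, in a comparison that was not planned. That RNA comes from an allele that removes the protein, so its level is no measure of SMCHD1 protein. Smchd1 was 55.3 CPM in the library labelled female replicate 1, 67.1 in male replicate 3, 91.8 in female replicate 4 and 99.8 in male replicate 2, and Vmn1r90 was 5.27, 3.86, 2.20 and 1.39 CPM in the same order. With 4 libraries no correlation is given. The exact Poisson intervals of Vmn1r90, in that order of libraries, were 4.42 to 6.47, 2.18 to 6.19, 1.37 to 2.93 and 0.766 to 2.35 reads per 1000000. Each overlapped the next, and only replicate 1 lay clear of replicates 4 and 2. Without replicate 1, which goes against its sex label, all the remaining intervals overlapped. The intervals therefore do not settle the order of neighbouring libraries, and the single steps were not tested.

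**Figure D4:**
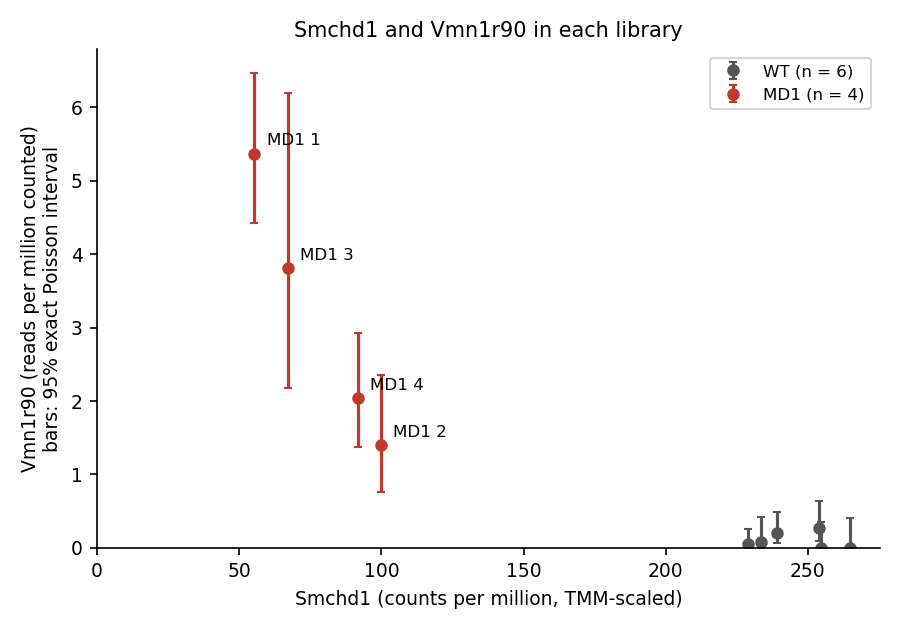
Each point is 1 library, placed by Smchd1 (counts per 1000000) and by Vmn1r90 (reads per 1000000 counted), with bars for the 95% exact Poisson interval. The 6 WT libraries lie together at the lower right, and the 4 MD1 libraries run from replicate 1 at the upper left to replicate 2 at 1.40 reads per 1000000.

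Around Vmn1r90 no other gene of the count table had a read, and the overlapping Nlrp5-ps is not among the genes of that table. All 6 other genes of the table within 500 kb, the sulfotransferase genes Sult2a3, Sult2a6, Sult2a7 and Sult2a8 and the homeobox genes Obox7 and Obox8, had 0 reads in every library. The nearest gene on the lower side, Sult2a7, is 61.2 kb away and the nearest on the higher side, Obox7, 96.0 kb. The first genes with any read were Cabp5 at 1147 kb on the lower side (35 reads) and Crx at 1302 kb on the higher side (7 reads), so Vmn1r90 was the only gene of the table with reads in 2.46 Mb, among 18 others. The nearest tested genes, chosen after their values were seen, were the phospholipase gene Pla2g4c at 1195 kb (log2 fold change 0.15, SE 0.28) and the selenoprotein gene Selenow at 1354 kb (-0.04, SE 0.11), and neither passed the threshold in edgeR (adjusted p = 0.841 and 0.896). On the whole of chromosome 7, 4 of 1269 tested genes passed (0.315%), beside 0.0777% of all 15452 autosomal genes tested. They were Vmn1r90 and, far from it, Mkrn3, Ndn and Peg12, which lie close together at chr7:62346569-62464510.

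Most genes of the other chemosensory receptor families were also without reads. Of the 104 Vmn1r genes on other autosomes 7 had a read, and Vmn1r32 led them with 62 reads. Of the 123 Vmn2r genes, the second vomeronasal receptor family, 13 had a read, of the 1127 olfactory receptor genes (Olfr) 86, of the 15 trace amine receptor genes (Taar) 1 and of the 4 Fpr-rs genes 0. In the edgeR fit without a filter these families gave 7, 13, 86, 1 and 0 genes to test and 0 calls, with 2, 2, 4, 0 and 0 genes at an unadjusted p under 0.05, beside 9.28% of all genes in that fit. DESeq2 was run on the filtered genes, to which the families contributed 0, 1, 2, 0 and 0 genes, and it called 0 of those. In none of the 4 families with reads did any gene have all MD1 libraries above all WT libraries. The share over the 22864 autosomal genes with a read was 0.748%, at which few or none would be expected among these genes.

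As Vmn1r88 did in its family, 1 gene each held most of the reads of the Vmn2r and Olfr families, and neither passed the threshold in edgeR. Vmn2r110 was 9.41 ± 0.731 CPM in the WT libraries (SD, n = 6) and 9.30 ± 1.24 CPM in the MD1 libraries (SD, n = 4), with a log2 fold change of -0.02 (SE 0.14, adjusted p = 0.958). Olfr482, also on chromosome 7, was 6.98 ± 1.41 CPM in WT and 5.95 ± 1.97 CPM in MD1 (-0.21, SE 0.23, adjusted p = 0.722).

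Genes of vomeronasal signalling and of the sensory lineage were described from fixed lists. Of 7 signalling genes 4 could be tested, 2 were higher and 2 lower, and 0 passed in edgeR or in DESeq2 or had an unadjusted p under 0.05 in edgeR (beside 9.79% of all tested genes), with a median log2 fold change of 0.01 beside 0.00 for all tested genes. Gnai2, which is expressed in many cell types, was 435 ± 35.7 CPM in WT and 383 ± 60.3 CPM in MD1 (SD, n = 6 and n = 4). Trpc2, the channel of vomeronasal transduction, was 7.15 ± 1.29 and 6.27 ± 2.18 CPM. Omp, a marker of mature sensory neurons, had 11 reads in all, and the receptor transport genes Rtp1 and Rtp2 had 19 and 3.

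Of 12 genes of the olfactory and vomeronasal sensory lineage 11 could be tested, 3 were higher and 8 lower, with a median of -0.12. In edgeR 0 passed and 1, the proneural factor Neurog1, had an unadjusted p under 0.05, a share near the 9.79% of all tested genes, and DESeq2 called 0. The summed level of the list was 477 to 591 CPM in WT and 445 to 523 CPM in MD1. A list of 12 germline and cleavage-stage genes had 8 members at 0 reads in every library and only Sycp3 testable (log2 fold change -0.29, SE 0.30, adjusted p = 0.712 in edgeR).

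Marker genes of other tissues were high in some MD1 libraries. The 12 genes of yolk sac endoderm and liver summed to 374 CPM in MD1 replicate 1 (labelled female) and 94.9 CPM in MD1 female replicate 4, against 2.93 to 31.3 CPM in WT. In MD1 male replicates 2 and 3 they summed to 1.79 and 2.17 CPM, below every WT library, and Afp, the defining marker, was at 0 in both. Vmn1r90 was at 1.39 and 3.86 CPM in those replicates. Whether other tissue in the libraries contributed to the level of Vmn1r90 was not tested. In edgeR 4 of the 12 could be tested, all higher in MD1 with an unadjusted p under 0.05 (beside 6.41% of all tested genes), and 0 passed there or in DESeq2 (median log2 fold change 3.09).

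The 11 erythroid genes, of which 10 are in the table, summed to 20686 CPM in MD1 female replicate 4 and to 2713 to 4386 CPM in the other MD1 libraries, against 3094 to 4489 CPM in WT. Of 8 tested, 7 were higher, 3 had an unadjusted p under 0.05 (beside 9.79% of all tested genes) and 0 passed in edgeR or DESeq2 (median 0.99). The 12 hypoxia genes summed to 10975 CPM in MD1 female replicate 4, against 1085 to 2450 CPM in WT. In MD1 replicates 1 to 3 they summed to 2539, 1403 and 1994 CPM. All 11 hypoxia genes tested were higher with an unadjusted p under 0.05 (beside 6.41% of all tested genes), and 0 passed in either tool (median 1.88). This count includes replicate 4 and is not given without it. Without MD1 female replicate 4, which held the most of both lists, Vmn1r90 had a log2 fold change of 4.81 and an adjusted p of 0.00179 in edgeR. Whether the signal of these lists bears on Vmn1r90 was not tested.

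**Figure D5:**
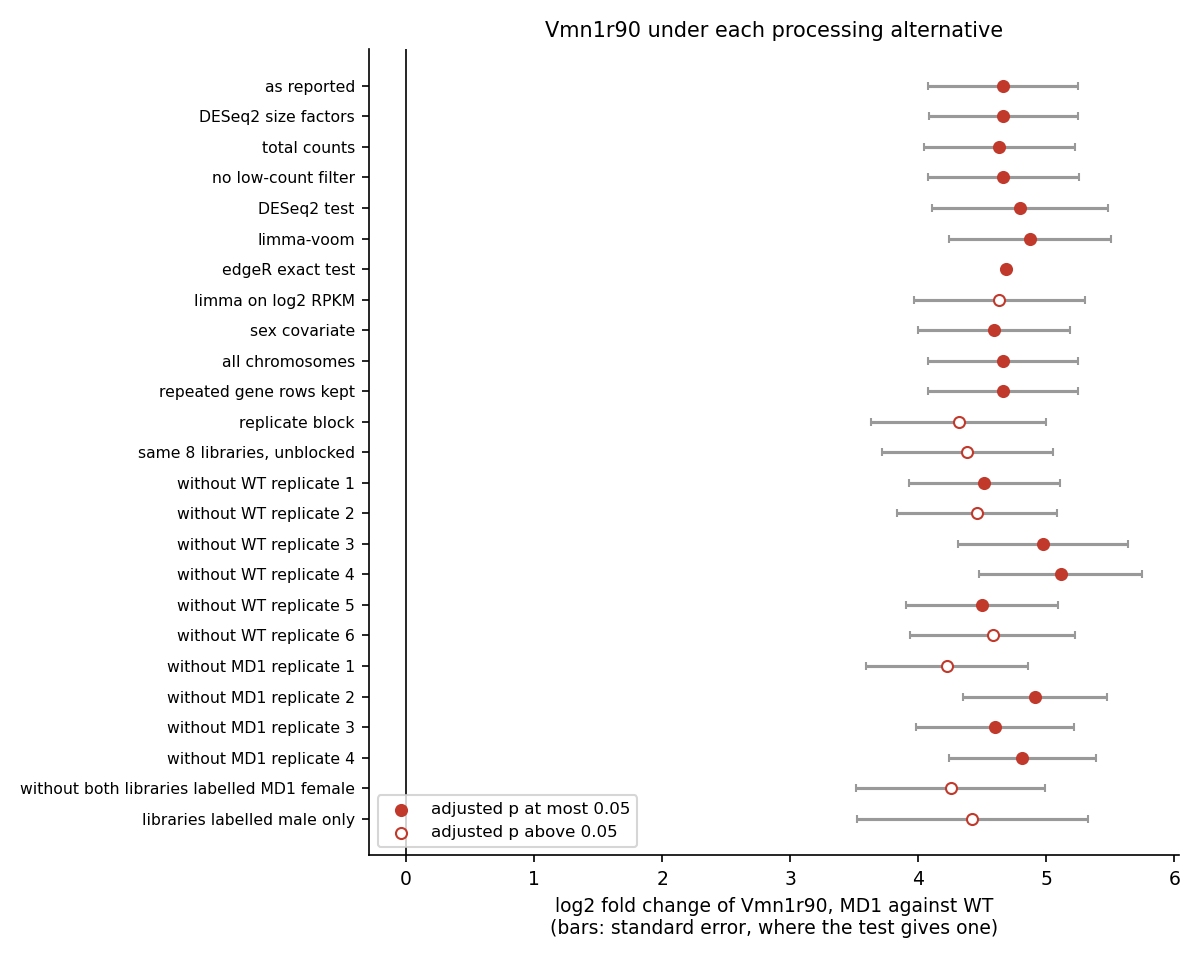
Log2 fold change of Vmn1r90, MD1 against WT, under each processing alternative, with its standard error where the test gives one. Filled points have an adjusted p of at most 0.05 and open points do not, and every value lies between 4.23 and 5.11.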

How the data were processed

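The authors deposited 1 table of raw read counts per gene for the 10 libraries and 1 of log2 RPKM values, with zero counts replaced before the logarithm. Columns of genotype averages in both, made by the authors, were not used. Per the study's methods, 75-base single-end reads went through Trim Galore 0.4.4 for trimming and HISAT2 2.0.5 for alignment to GRCm38.p6, and genes were counted in SeqMonk. The tool bcl2fastq is also named by the submitters' processing notes. The library kit named in the labels, TruSeq RNA v2, does not mark strand, and the counting settings for multi-mapping and strand were not given in the sources used, so sense and antisense reads cannot be told apart.

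The 49 repeated rows were dropped, which left 35542 genes. Counts were tested in edgeR 4.0.16 (quasi-likelihood test, R 4.3.3, filterByExpr, TMM, Benjamini-Hochberg over 15452 autosomal genes, threshold 0.05, no covariate). Alternatives used DESeq2 1.42.0 and limma 3.58.1, among others. Intervals are exact Poisson or binomial at 95%. Replicate numbers were not used as pairs in this fit. The labels give no animal or day shared by a number, and every correlation of same-numbered deviations was under 0.1. Such correlations cannot show that same-numbered libraries were handled apart.

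All 103 genes matched GENCODE M21 by identifier. Coding sequences from its transcripts were aligned with Biopython 1.88, in place of RefSeq proteins, which were not used here. Distinct 75-base stretches were compared between transcripts. No genome sequence was used.

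The members and gene lists were chosen with earlier results of these data known. Named were Vmn1r90, members with at least 10 reads, its neighbours on either side, its 5 closest relatives, genes within 500 kb and Smchd1. For other receptor families those with the most reads were named.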

Additional observations from a re-analysis of the deposited data

How the results depend on the processing

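The direction of Vmn1r90 was upward under all 24 alternatives, with log2 fold changes of 4.23 to 5.11. In 16 of the 24 it stayed past the threshold as the 1 called gene of the family. Vmn1r90 had been picked for its rise in these same libraries, so these counts describe its call and are no test of it. Only 2 genes of the family passed the filter in the main fit, so few others could have been called. Vmn1r88 passed under 0 of the 24 (-0.09 to 0.23, adjusted p 0.644 to 0.996). Leaving out 1 library gave 4.23 to 5.11 for Vmn1r90 (adjusted p 0.00179 to 0.0908 in edgeR), 0 or 1 called gene of the family, and 4 to 13 called autosomal genes against 12. The autosomal count moved by over 1.5 times without WT replicate 1 (7), 2 (4), 3 (6), 5 (7) or 6 (5) and without MD1 replicate 1 (4) or 3 (7). The call of Vmn1r90 was lost, leaving 0 genes of the family, in limma on log2 RPKM (4.63, adjusted p = 0.0528, 4 autosomal calls), without both libraries labelled MD1 female (4.25, adjusted p = 0.104 in edgeR, 6 calls) and in the libraries labelled male alone (4.42, adjusted p = 0.657 in edgeR, 4 calls). DESeq2 called 51 autosomal genes and edgeR's exact test 29, Vmn1r90 among them. The difference of MD1 less WT in reads of the other family members was 0.582 CPM, 0.191 per 1000000 of the total count, and -0.951 to 1.78 CPM on leaving out 1 library, an alternative added after seeing the data. It was -0.951 CPM without MD1 replicate 3, the shallowest library. The causes of these shifts were not tested, beyond the smaller number of libraries where some were left out.

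With replicate number as a block, on the 8 libraries whose numbers occur in both genotypes, the log2 fold change of Vmn1r90 was 4.31 (adjusted p = 0.763 in edgeR), with 0 genes of the family and 0 autosomal genes called and 364 at an unadjusted p under 0.05. The same 8 libraries without the block gave 4.38 (adjusted p = 0.147), 0 genes of the family and 3 autosomal calls. The numbers share no animal or day in the labels, and the correlations of same-numbered libraries were 0.0121, 0.00227, 0.0776 and -0.0402. Depth limits every statement on the silent genes.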

Other observations

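Vmn2r1, a receptor gene of the second vomeronasal family on chromosome 3, had the third most reads of that family, 50 in all. It was at 0.137 ± 0.119 CPM in the WT libraries (SD, n = 6) and 0.764 ± 1.13 CPM in the MD1 libraries (SD, n = 4). Its log2 fold change was 2.47 (SE 0.96, adjusted p = 0.511 by edgeR without a filter). Vmn2r57, on chromosome 7, had more reads, 100 in all, and a log2 fold change of 0.94 (SE 0.58, adjusted p = 0.591 in the same fit). Vmn1r32, on chromosome 6, was 0.507 ± 0.268 CPM in WT and 0.145 ± 0.183 CPM in MD1 (-1.46, SE 0.78, adjusted p = 0.551 in the same fit).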
